A study of Mus musculus with 40 samples.

Results

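The transcripts described here are those of 10 genes of the NRF2 pathway and of the antioxidant enzymes around it, out of 47643 gene identifiers counted by RNA sequencing in mouse brain. They were chosen by name and matched by Ensembl identifier: the transcription factor Nfe2l2 (NRF2), its inhibitor Keap1, the target genes Hmox1, Nqo1, Txnrd1, Txn1, Prdx1 and Srxn1, and the superoxide dismutases Sod1 and Sod2. All 10 were found in both count tables. The samples were 40 libraries from wild-type Swiss Webster mice that were germ-free before they received, by gavage, a stool suspension collected from 1 of 10 donors before (pre-KD) or during (post-KD) a clinical ketogenic diet. The mice themselves ate control chow, are described as young females in the study's methods, and were killed a few days after colonization, so the groups differ in the stool given and not in the diet of the animals. Hippocampus and frontal cortex were taken from each of 20 cohorts of recipient mice. This gave 4 groups of 10 libraries: hippocampus pre-KD, hippocampus post-KD, frontal cortex pre-KD and frontal cortex post-KD. Each library stands for 1 donor sample and 1 cohort of several animals, so the spread between libraries is that between cohorts and not between single mice.

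NRF2 is a basic leucine zipper factor that is held in the cytosol and marked for degradation by KEAP1, an adaptor of a CUL3 ubiquitin ligase. When electrophiles or oxidants modify cysteines of KEAP1, NRF2 escapes, pairs with a small MAF protein in the nucleus and binds antioxidant response elements near its targets. The targets include enzymes that reduce quinones, break down heme, and keep thioredoxin and peroxiredoxins in their reduced form. In brain, many NRF2 targets are more active in astrocytes than in neurons. NRF2 is controlled largely at the level of its protein, so the amount of its mRNA and its activity are separate quantities.

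The libraries held 1140756 to 1947416 assigned counts in hippocampus (median 1560669.5) and 1188447 to 2095352 in frontal cortex (median 1718001.5). The 10 members together took 24620 counts in hippocampus, which was 0.0803% of all counts there, and 28965 counts in frontal cortex, which was 0.0857%. Levels below are in CPM, which are read counts scaled to a common library total, with TMM factors computed over all 40 libraries. The tissue labels were checked against marker genes: 4 of 4 hippocampal markers were higher in hippocampus past adjusted p = 0.05, and of 5 cortical markers 2 were lower and 1 higher. The frontal cortical libraries also carried more striatal transcript, with summed levels of 366 to 824 CPM over 6 markers against 24.9 to 240 CPM in hippocampus, where the striatal receptor gene Drd2 had no count. The hippocampal libraries carried more choroid plexus transcript, at 476 to 4307 CPM over 8 markers against 1.57 to 594 CPM. The libraries of donors 9 and 10 went against the stated sex of the mice: in all 8 of them the sum of 4 Y-linked transcripts, 79.0 to 179 CPM, exceeded that of Xist, 3.40 to 27.2 CPM, whereas in the other 32 the Y-linked sum was at most 15.8 CPM, reached in the hippocampus pre-KD library of donor 2, and Xist was at least 450 CPM. Fitted values without donors 9 and 10 are therefore given where they turned in sign or moved by more than 1.5 times.

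The antioxidant response element has the core TGACNNNGC, and it was searched for on both strands of the RefSeq start windows of GRCm38.p6, which run from 250 bases before to 50 bases after an annotated start. Of the 9 members with a window, 5 held the core, against 13.99% of 27025 gene symbols and 12.4% of 32851 windows. These 5 are shown because they are all the members with the core in a window. The 9 bases of the core are in capitals, with 10 bases on each side, read 5′ to 3′ on the minus strand.
Nfe2l2, chr2:75704885-75704913: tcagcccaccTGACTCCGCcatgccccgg
Txnrd1, chr10:82859104-82859132: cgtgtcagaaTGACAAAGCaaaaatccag
Prdx1, chr4:116685456-116685484: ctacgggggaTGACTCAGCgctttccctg
Srxn1, chr2:152105542-152105570: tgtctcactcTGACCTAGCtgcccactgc
Sod1, chr16:90220696-90220724: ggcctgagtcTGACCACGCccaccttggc
Counted in bases from the annotated start, the centre of the core lay at -236 in Nfe2l2, -129 in Prdx1, -88 in Txnrd1, -52 in Sod1 and 32 in Srxn1. The Txnrd1 start of this window, at 82859206, lies inside the gene's span of 82833951 to 82897712 and not at its end. The 5 cores differ from one another in their 3 free positions. The windows of Nqo1, Keap1, Txn1 and Sod2 did not hold these letters, which says nothing of elements farther from the start. A match is a run of letters and not a measured binding site.

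In both regions the members spanned a wide range of abundance, with the cytosolic superoxide dismutase at the top and the 2 best known inducible targets, Nqo1 and Hmox1, at the bottom. Per kilobase of annotated exon, Sod1 was at 92.3 ± 20.1 CPM in hippocampus and 101 ± 21.9 CPM in frontal cortex (SD, n = 20). Txn1, the thioredoxin that hands electrons to peroxiredoxins, followed at 54.2 ± 22.8 and 49.2 ± 9.92 CPM per kilobase. Prdx1, a peroxiredoxin that removes hydrogen peroxide, was at 31.7 ± 11.2 and 31.2 ± 10.2, Srxn1, which repairs overoxidized peroxiredoxins, at 27.9 ± 9.47 and 29.5 ± 8.29, and Keap1 at 22.4 ± 5.51 and 24.03 ± 6.09. For these 3 neighbours the ranges of mean ± SD overlapped, and their order was not tested. Nfe2l2, at 5.56 ± 2.87 and 7.59 ± 5.09, and Txnrd1, at 5.46 ± 3.26 and 7.13 ± 3.93, lay well under Keap1. The mitochondrial Sod2 was at 2.96 ± 1.52 and 3.81 ± 2.11. Among Nfe2l2, Txnrd1 and Sod2 the ranges of mean ± SD also overlapped, and their order was not tested. Nqo1 was at 1.46 ± 2.70 and 1.45 ± 2.12, and Hmox1 at 0.396 ± 1.12 and 0.553 ± 1.67 CPM per kilobase, so that for both the SD exceeded the mean. The order of the 10 was the same in both regions. Levels per length assume reads from whole transcripts, as the kit named in the labels gives; the study's resource list also names a kit that reads transcript ends, with which levels would not be divided by length. Without that division Txn1, at 57.0 ± 24.01 and 51.7 ± 10.4 CPM in hippocampus and frontal cortex, lay below Keap1 (105 ± 25.9 and 113 ± 28.6), Prdx1 (96.5 ± 34.2 and 94.8 ± 30.9) and Srxn1 (78.7 ± 26.7 and 83.3 ± 23.4), and Nfe2l2, at 21.1 ± 10.9 and 28.8 ± 19.3 CPM, below Sod2, at 29.6 ± 15.2 and 38.1 ± 21.2 CPM.

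**Figure D1:**
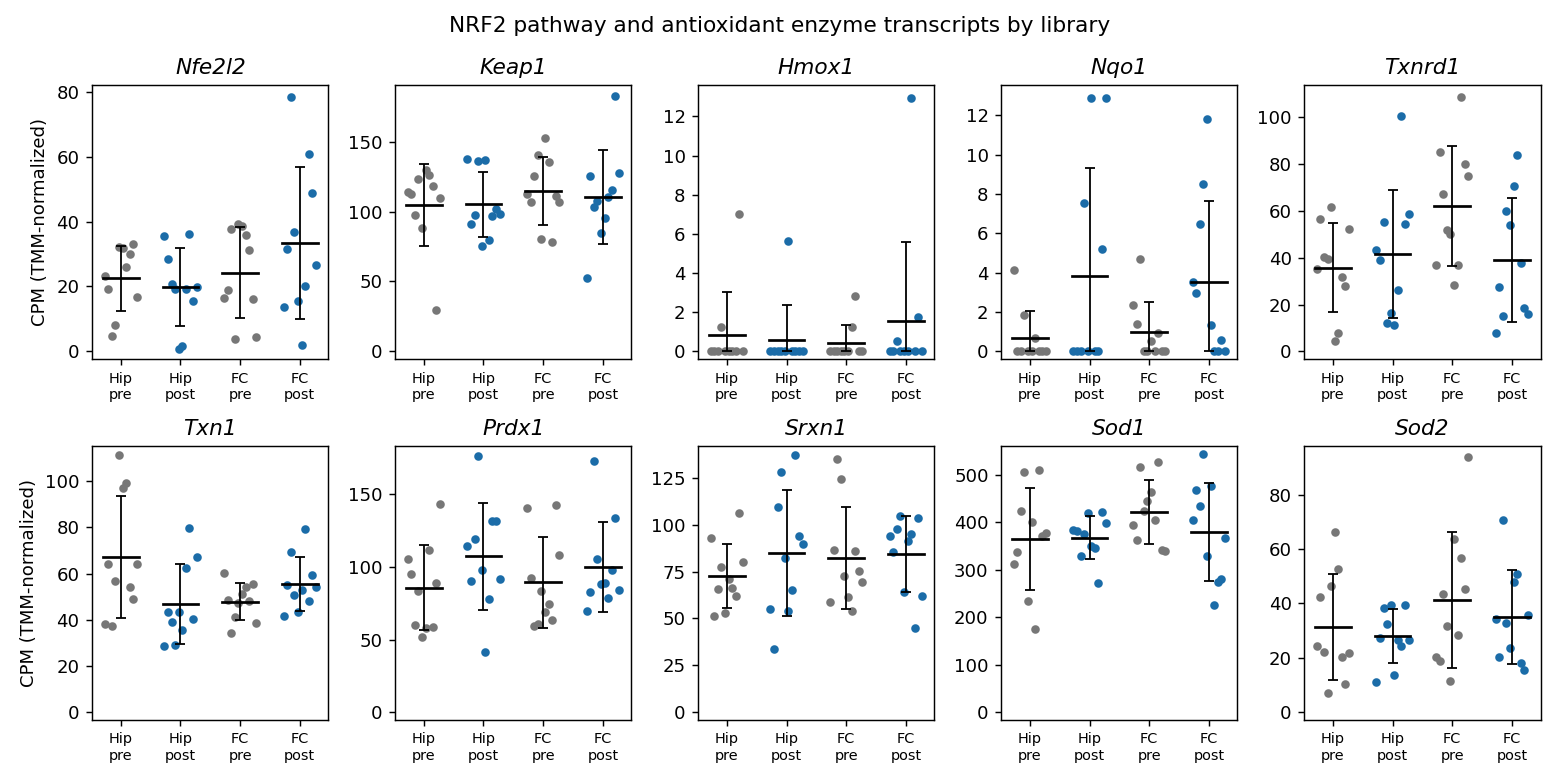
Each panel plots 1 gene, with TMM-normalized CPM on a linear axis (scales differ between panels) for the 10 pre-KD (grey) and 10 post-KD (blue) libraries of hippocampus (Hip) and frontal cortex (FC). Long bars are means and whiskers 1 SD, cut at 0; Sod1 reaches 543 CPM, while Hmox1 and Nqo1 reach at most 12.96 CPM, with many libraries at 0.

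Nfe2l2, which encodes NRF2 itself (ENSMUSG00000015839, chromosome 2, 75675513 to 75704641, minus strand), was detected in every library at a low and uneven level. In hippocampus it ran from 4.89 through a median of 24.6 to 33.1 CPM in the pre-KD libraries and from 0.820 through 19.7 to 36.1 CPM in the post-KD libraries. In frontal cortex it ran from 3.96 through 25.1 to 39.2 CPM pre-KD and from 2.001 through 29.02 to 78.2 CPM post-KD. The groups overlapped in both regions, with the lowest post-KD values in the cohorts of donors 5 and 6 in hippocampus and donor 6 in frontal cortex, and the highest in frontal cortex in that of donor 3. The log2 fold change, post-KD minus pre-KD, was -0.20 in hippocampus (SE 0.55, 95% interval -1.30 to 0.90) and 0.45 in frontal cortex (SE 0.38, interval -0.30 to 1.21). Neither differed from 0 in edgeR's quasi-likelihood test (adjusted p = 0.9998 and 0.914), and without donors 9 and 10 the values were -0.12 and 0.21.

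Keap1, the inhibitor (ENSMUSG00000003308, chromosome 9, 21229730 to 21239361, minus strand), had a coefficient of variation of 21.2% to 30.3% over the 4 groups. It ran from 29.9 through 113 to 130 CPM in hippocampus pre-KD, 75.4 through 97.8 to 138 CPM in hippocampus post-KD, 78.3 through 112 to 153 CPM in frontal cortex pre-KD and 52.8 through 109 to 183 CPM in frontal cortex post-KD. The groups overlapped in both regions, with 3 post-KD libraries above every pre-KD one in hippocampus and 1 above and 1 below in frontal cortex, and the single low hippocampal library was that of donor 9, pre-KD. The log2 fold change was -0.0087 in hippocampus (SE 0.22, interval -0.44 to 0.43) and -0.06 in frontal cortex (SE 0.17, interval -0.39 to 0.27). Neither passed the test (adjusted p = 0.9998 and 0.998), and the sign in hippocampus turned under several settings. Without donors 9 and 10 the values were -0.11 and -0.24, neither past unadjusted p = 0.05.

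Nqo1, the quinone reductase widely used as a readout of NRF2 (ENSMUSG00000003849, chromosome 8, 107388225 to 107403206, minus strand), had more reads in the post-KD than in the pre-KD group of both regions, but the reads were few and sat in a part of the libraries. In hippocampus 3 of 10 pre-KD libraries held 11 counts in all and 4 of 10 post-KD libraries held 57. The pre-KD counts came from donor 1 (4.16 CPM), donor 4 (1.87 CPM) and donor 7 (0.668 CPM), and the post-KD counts from donors 6 and 10 (12.9 CPM each), donor 4 (7.54 CPM) and donor 9 (5.18 CPM), with all other libraries at 0. Each of the 4 post-KD libraries with reads stood above every pre-KD library, and the other post-KD libraries were level with the pre-KD ones at 0. In frontal cortex 5 pre-KD libraries held 16 counts and 7 post-KD libraries held 59. The pre-KD values were 2.34, 1.41, 4.70, 0.517 and 0.944 CPM for donors 1, 2, 3, 6 and 8, and the post-KD values were 3.52, 2.99, 6.47, 8.49, 11.8, 1.33 and 0.594 CPM for donors 1, 2, 3, 4, 5, 6 and 9. The mean over 10 libraries went from 0.670 ± 1.36 to 3.85 ± 5.45 CPM (SD) in hippocampus and from 0.991 ± 1.52 to 3.52 ± 4.12 CPM in frontal cortex.

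By donor, Nqo1 was higher in the post-KD than in the pre-KD library for 4 donors and lower for 2 in hippocampus, with both at 0 for the rest, and higher for 7 donors and lower for 1 in frontal cortex. The fitted log2 fold change was 2.38 in hippocampus (SE 1.47, interval -0.53 to 5.29, adjusted p = 0.747 in edgeR) and 1.75 in frontal cortex (SE 1.19, interval -0.62 to 4.11, adjusted p = 0.811), so that neither passed and no change as well as a large increase lay within the intervals. In hippocampus the fitted value was 3.58 with an unadjusted p of 0.0305 (adjusted p = 0.386) when donor 1 was left out, and 1.51 when donors 9 and 10 were left out. In frontal cortex it was 1.73 without donors 9 and 10. With donor as a block the hippocampal value was 1.84 in edgeR (unadjusted p = 0.389) and 1.29 in DESeq2 (unadjusted p = 0.578), and the frontal cortical value 1.55 and 1.35 (unadjusted p = 0.351 and 0.319). The cohort with the most Nqo1 reads was not the same in the 2 regions. The post-KD cohort of donor 10, which had the most reads in hippocampus (20), had none in frontal cortex, and that of donor 5, which had the most in frontal cortex (16), had none in hippocampus, while that of donor 4 was among the higher ones in both, with 13 reads in hippocampus and 15 in frontal cortex. Of all 20 cohorts, 7 had any Nqo1 read in hippocampus and 12 in frontal cortex. Reads in both were found in 4, which was 57.1% of the 7 and 33.3% of the 12. Whether this differs from the overlap of unrelated regions was not tested.

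Hmox1, the inducible heme oxygenase (ENSMUSG00000005413, chromosome 8, 75093621 to 75100589, plus strand), was sparser still. In hippocampus it had 2 counts in the donor 4 library and 11 in the donor 9 library among the pre-KD cohorts, and 7 counts in the donor 6 library among the post-KD cohorts. In frontal cortex it had 2 counts for donor 7 and 3 for donor 8 pre-KD, and 1 for donor 3, 22 for donor 7 and 3 for donor 9 post-KD. A single library therefore held 84.6% of the reads in the hippocampus pre-KD group and 84.6% in the frontal cortex post-KD group, and no cohort had Hmox1 reads in both regions. The fitted log2 fold change was -0.51 in hippocampus (SE 1.44, interval -3.37 to 2.34) and 1.79 in frontal cortex (SE 1.44, interval -1.07 to 4.66), and its sign in frontal cortex turned in DESeq2. With donor 6 left out, no hippocampus post-KD library held a read and the unadjusted p fell to 0.00544 (adjusted p = 0.121), so that 1 library decided the hippocampal value. Without donors 9 and 10, 9 counts were left in hippocampus, under the minimum of 10 for the fit, so that it gave no value there. Beside this heme-degrading enzyme, the summed level of 5 red blood cell transcripts in frontal cortex was 738 ± 246 CPM with pre-KD stool (390 to 1156) and 976 ± 257 CPM with post-KD stool (548 to 1390). Of the 4 tested there, 2 were fitted higher, both at unadjusted p below 0.05, and 2 were fitted lower. None passed adjustment, and 9.68% of all genes passed the unadjusted threshold. The fifth, Hba-a2, had no count, and the part of blood in the Hmox1 values was not tested.

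**Figure D2:**
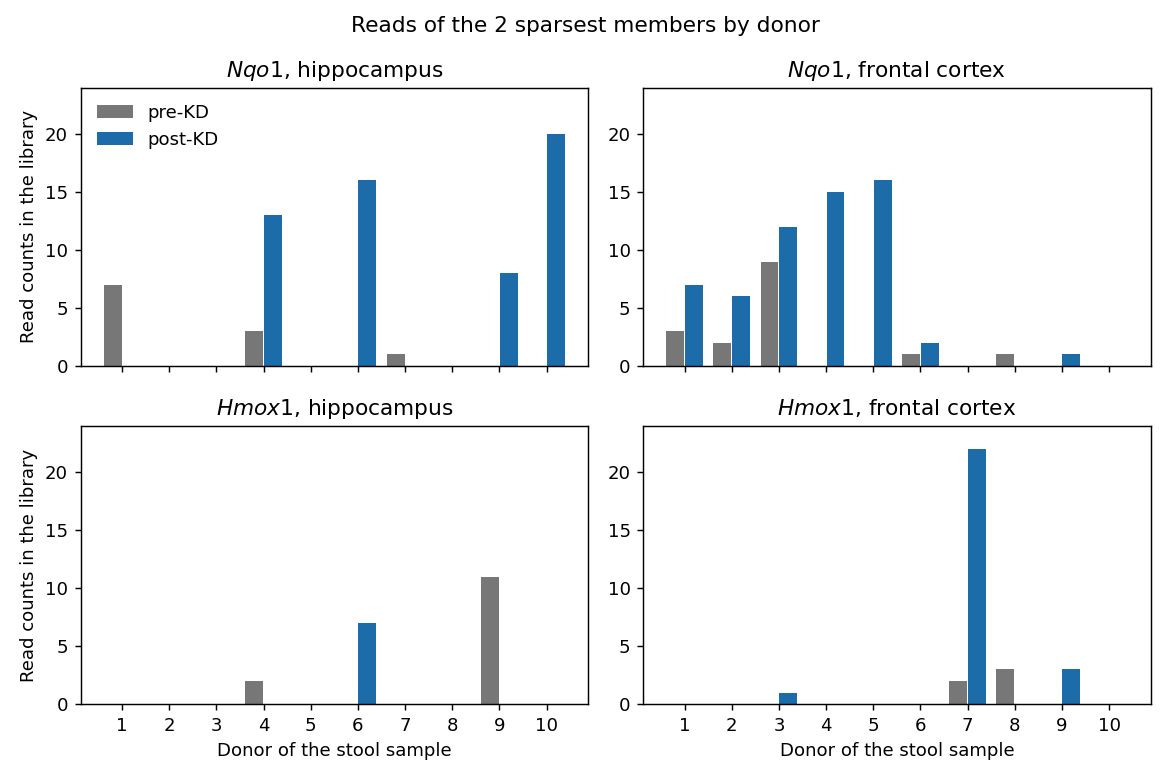
Bars give the reads assigned to Nqo1 (top) and Hmox1 (bottom) in each library, by donor of the stool sample, pre-KD in grey and post-KD in blue, with hippocampus on the left and frontal cortex on the right. Libraries without a bar had no read; the highest bars are 22 reads of Hmox1 in 1 frontal cortical library and 20 of Nqo1 in 1 hippocampal library.

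The thioredoxin pair held the lowest p-values among the members, Txnrd1 in frontal cortex and Txn1 in hippocampus, and neither passed after adjustment. Txnrd1, the cytosolic reductase that recharges thioredoxin with electrons from NADPH (ENSMUSG00000020250, chromosome 10, 82833951 to 82897712, plus strand), ran from 28.4 through 59.7 to 109 CPM in frontal cortex pre-KD and from 8.04 through 32.5 to 83.7 CPM post-KD. Of the 10 post-KD libraries, 5 lay below every pre-KD library, and by donor the post-KD library was lower for 6 and higher for 4. The mean over 10 libraries was 62.0 ± 25.5 CPM (SD) with pre-KD and 39.1 ± 26.4 CPM with post-KD stool, a log2 fold change of -0.67 (SE 0.28, interval -1.23 to -0.11), or 1.59-fold lower. This had an unadjusted p of 0.0207 and an adjusted p of 0.308 in edgeR, so that Txnrd1 did not pass the adjusted threshold. The log2 fold change was -0.91 with donor as a block (unadjusted p = 0.00108, adjusted p = 0.743) and -0.39 without donors 9 and 10, with an unadjusted p of 0.207. The unadjusted call was also lost when donor 2, 3, 8, 9 or 10 was left out alone (p up to 0.0736, log2 fold change -0.54 to -0.93 over all donors left out in turn).

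In hippocampus, Txnrd1 ran from 4.62 through 37.2 to 61.8 CPM pre-KD and from 11.3 through 41.1 to 100.3 CPM post-KD. The post-KD library held more for 7 donors and less for 3. The groups overlapped, the highest value being that of donor 8, and the log2 fold change was 0.21 (SE 0.39, interval -0.57 to 0.99, adjusted p = 0.9998), or 0.12 without donors 9 and 10. The difference between the 2 regions in the post-KD change was 1.17 for Txnrd1 on the log2 scale (SE 0.53, interval 0.14 to 2.20), with an unadjusted p of 0.0264 and an adjusted p of 1, and without donors 9 and 10 it was 0.66 with an unadjusted p of 0.271.

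Txn1, the thioredoxin that TXNRD1 reduces (ENSMUSG00000028367, chromosome 4, 57943373 to 57956411, minus strand), ran from 37.5 through 60.4 to 111 CPM in hippocampus pre-KD and from 28.5 through 41.7 to 80.0 CPM post-KD. The 3 highest pre-KD values were those of donors 5, 6 and 7, 3 post-KD libraries lay below every pre-KD one, and 7 donors had less Txn1 in the post-KD library. The log2 fold change was -0.53 (SE 0.30, interval -1.11 to 0.06), with an unadjusted p of 0.0788 and an adjusted p of 0.643 in edgeR. With donor as a block in edgeR the unadjusted p was 0.129. In DESeq2 the unadjusted p was 0.0471 without and 0.0466 with that block, with adjusted p = 0.9999 and 0.921. In frontal cortex Txn1 ran from 34.5 through 48.3 to 60.1 CPM pre-KD and from 41.7 through 53.5 to 79.5 CPM post-KD, with more in the post-KD library for 7 donors. Its log2 fold change there was 0.21 (SE 0.22, interval -0.22 to 0.64). The difference between regions was -0.71 (SE 0.43, interval -1.56 to 0.13, unadjusted p = 0.0986), and in DESeq2 its unadjusted p was 0.0156 (adjusted p = 0.813). Beside these values, the 5 of 6 striatal markers tested in hippocampus were all fitted lower post-KD, 1 of them at unadjusted p below 0.05 (median log2 fold change -0.60). Their summed level was 131 ± 56.8 CPM pre-KD (61.6 to 240) and 87.4 ± 39.8 CPM post-KD (24.9 to 159) in hippocampus, and 650 ± 125.2 CPM (366 to 823) and 712 ± 94.2 CPM (537 to 824) in frontal cortex. For the difference between regions 3 of the 5 were lower at unadjusted p below 0.05 and 0 after adjustment, and the part of striatal tissue in the values of Txn1 and Txnrd1 was not tested.

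**Figure D3:**
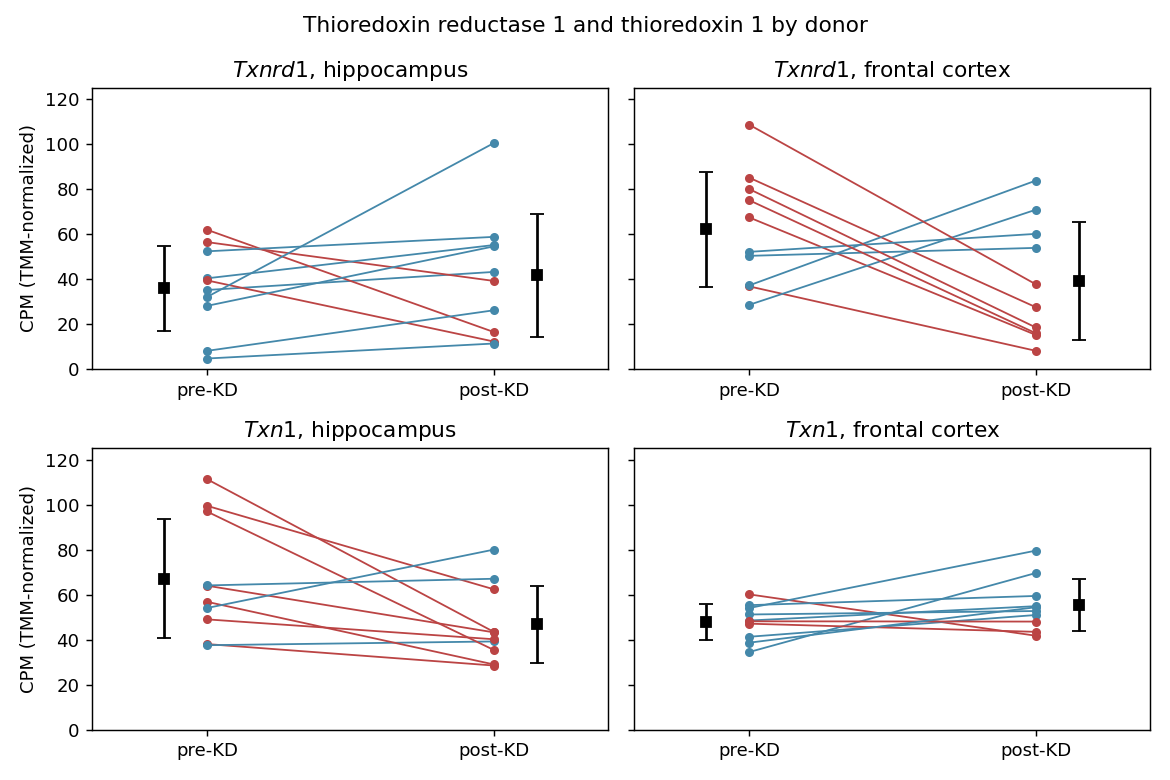
Lines join the pre-KD and post-KD library of each donor for Txnrd1 (top) and Txn1 (bottom), in TMM-normalized CPM, with lower post-KD values in red and higher ones in blue. Black squares and whiskers are means and 1 SD over 10 libraries; Txnrd1 was lower post-KD for 6 donors in frontal cortex and higher for 7 in hippocampus, and Txn1 was lower for 7 donors in hippocampus and higher for 7 in frontal cortex.

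The peroxiredoxin arm had more reads, and neither of its genes passed the test. Prdx1 (ENSMUSG00000028691, chromosome 4, 116685544 to 116700822, plus strand) ran from 51.7 through 86.4 to 143 CPM in hippocampus pre-KD, 41.1 through 106 to 177 CPM in hippocampus post-KD, 59.5 through 79.2 to 143 CPM in frontal cortex pre-KD and 69.4 through 88.6 to 173 CPM in frontal cortex post-KD. The groups overlapped over nearly their whole range, and 6 donors were higher post-KD in each region. The log2 fold change was 0.32 in hippocampus (SE 0.23, interval -0.15 to 0.78) and 0.16 in frontal cortex (SE 0.18, interval -0.20 to 0.53), the latter 0.28 without donors 9 and 10. Srxn1 (ENSMUSG00000032802, chromosome 2, 152105516 to 152111376, plus strand), the sulfiredoxin that reactivates peroxiredoxins, had log2 fold changes of 0.22 in hippocampus (SE 0.26, interval -0.29 to 0.72) and 0.03 in frontal cortex (SE 0.19, interval -0.35 to 0.41), the latter -0.013 without donors 9 and 10. Its values ran from 51.1 through 68.5 to 106 CPM pre-KD and from 33.8 through 85.8 to 137 CPM post-KD in hippocampus, so that the post-KD cohorts covered the pre-KD range and passed it at both ends. In frontal cortex they ran from 54.0 through 74.0 to 135 CPM and from 45.1 through 92.7 to 105 CPM.

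The superoxide dismutases, which turn superoxide into hydrogen peroxide, differed from each other mainly in level. Sod1, the copper and zinc enzyme of the cytosol (ENSMUSG00000022982, chromosome 16, 90220754 to 90226329, plus strand), ran from 176 through 374 to 511 CPM in hippocampus pre-KD and from 271 through 378 to 422 CPM post-KD, with a log2 fold change of 0.0012 (SE 0.15, interval -0.29 to 0.29), or -0.033 without donors 9 and 10. This was the narrowest interval among the members in hippocampus. In frontal cortex it ran from 339 through 414 to 528 CPM pre-KD and from 225 through 385 to 543 CPM post-KD, where 4 post-KD libraries lay below and 1 above every pre-KD library, with a log2 fold change of -0.15 (SE 0.12, interval -0.39 to 0.09). Sod1 shares part of its locus with Scaf4 on the opposite strand (1653 counts over all libraries), and reads there cannot be told apart without strand. Sod2, the manganese enzyme of the mitochondrion (ENSMUSG00000006818, chromosome 17, 13006846 to 13040063, plus strand), ran from 6.87 to 66.4 CPM pre-KD and 11.1 to 39.5 CPM post-KD in hippocampus, and from 11.5 to 93.7 CPM pre-KD and 15.4 to 70.7 CPM post-KD in frontal cortex. Its log2 fold changes were -0.18 (SE 0.44, interval -1.05 to 0.70) and -0.24 (SE 0.30, interval -0.84 to 0.36), and without donors 9 and 10 they were -0.41 and 0.11, so that the frontal cortical sign turned.

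Counted together, 1 of the 10 members passed the unadjusted threshold in frontal cortex and 0 did in hippocampus. In hippocampus 0 of the 10 passed unadjusted p = 0.05 in edgeR and 0 passed after adjustment, against 10.1% of all 17529 genes tested (1762 genes) and 0.0057% (1 gene). DESeq2 gave 1 member at unadjusted p below 0.05, Txn1, and 0 after adjustment. In frontal cortex 1 member, Txnrd1, passed the unadjusted and 0 the adjusted threshold, against 9.68% (1731 of 17873 genes) and 0.0056% (1 gene), so that the members' share was near that of all genes. With donor as a block the number of genes at unadjusted p below 0.05 was 348 in hippocampus and 548 in frontal cortex. The median log2 fold change over the members was -0.0037 in hippocampus (5 higher, 5 lower), beside -0.0076 over all genes, and 0.10 in frontal cortex (6 higher, 4 lower), beside 0.0087 over all genes. In bulk tissue, fewer cells of a type and less RNA per cell cannot be told apart.

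**Figure D4:**
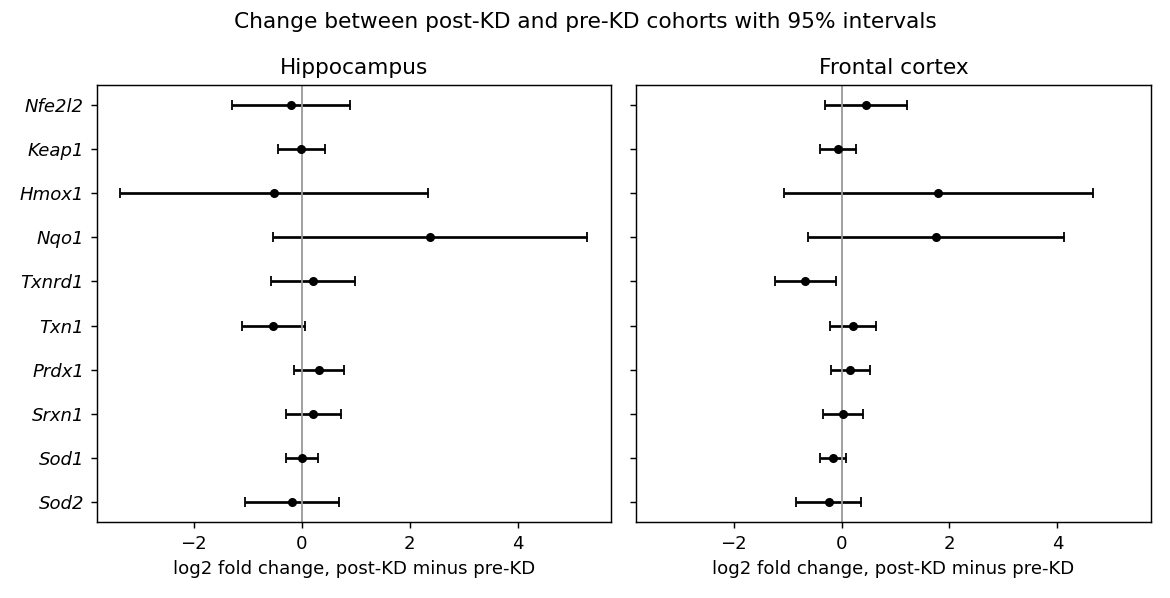
Points are log2 fold changes of the 10 genes, post-KD minus pre-KD, from edgeR, with 95% intervals, in hippocampus (left) and frontal cortex (right). The interval of Txnrd1 in frontal cortex, -1.23 to -0.11, is the 1 interval of 20 that leaves out 0, and those of Hmox1 and Nqo1 are the widest.

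Set beside the other 5 targets, Nqo1 had the largest fitted increase in hippocampus, where the other targets lay between -0.53 (Txn1) and 0.32 (Prdx1). In frontal cortex Hmox1 was fitted at 1.79 beside 1.75 for Nqo1, while Txn1, Prdx1 and Srxn1 lay between 0.03 and 0.21 and Txnrd1 at -0.67. The Hmox1 value there rested on few reads, with 84.6% of the post-KD reads in 1 library, and it was -0.53 in DESeq2. The difference between Nqo1 and the other targets was not tested. The Nqo1 intervals included the fitted value of each of the other targets apart from Txnrd1 in frontal cortex, and they were several times wider than those of Txn1, Prdx1 and Srxn1. Nqo1 averaged 5.70 and 5.90 reads in the post-KD libraries of hippocampus and frontal cortex, while the lowest such average among the 8 members other than Nqo1 and Hmox1 was 30.2, for Nfe2l2 in hippocampus.

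No member passed the test between the regions. For hippocampus minus frontal cortex, with cohort as a block, 0 of the 10 passed the unadjusted or the adjusted threshold, against 10.9% and 2.85% of 19422 genes. Their median was -0.24 (2 higher, 8 lower) beside -0.17 over all genes (7252 higher, 12170 lower). Txnrd1 came closest, at -0.45 (SE 0.26, interval -0.97 to 0.06, unadjusted p = 0.0845), followed by Sod1 at -0.13 (SE 0.088, interval -0.30 to 0.04, unadjusted p = 0.134). Without donors 9 and 10 both passed the unadjusted threshold (Txnrd1 -0.66, p = 0.0268; Sod1 -0.23, p = 0.0183) and neither the adjusted one (adjusted p = 0.374 and 0.305). The most even members were Prdx1 at 0.0043 (SE 0.16, interval -0.30 to 0.31) and Txn1 at 0.06 (SE 0.22, interval -0.36 to 0.48). Nqo1 was fitted at -0.92 with a wide interval (-3.30 to 1.45), although its mean per kilobase was nearly equal in both regions, and at -1.87 without donors 9 and 10. Without the cohort block it was -0.17 (unadjusted p = 0.836), and with 1 donor left out in turn it ran from -1.48 to -0.20. Without donors 9 and 10 Srxn1 went from -0.11 to -0.22, Keap1 from -0.11 to 0.033 and Prdx1 from 0.0043 to 0.0082, none past unadjusted p = 0.05. The regions were deposited in separate tables, so region and table cannot be told apart, and the striatal and choroid plexus transcripts given above moved with the region; their part in these values was not tested.

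For the difference between regions in the post-KD change, 1 member, Txnrd1, passed the unadjusted and 0 the adjusted threshold, against 2.22% and 0.0154% of 19422 genes. The median over the members was 0.11 (6 higher, 4 lower) beside -0.07 over all genes. Of the others, Nfe2l2 had -0.86 (SE 0.72, interval -2.28 to 0.56), and Keap1, Prdx1, Srxn1, Sod1 and Sod2 lay between 0.09 and 0.24. For Nqo1 the fitted difference was -0.18 with an unadjusted p of 0.988, and no interval is given, since the absolute log2 fold change over the square root of F came to 11.9 there, beside SEs of 1.47 and 1.19 for the changes within the regions. Without the cohort block it was 0.64 (unadjusted p = 0.711). Without donors 9 and 10 the fitted differences were -0.47 for Nfe2l2, -1.89 for Nqo1, 0.14 for Srxn1 and -0.45 for Sod2, none past unadjusted p = 0.05, and that of Hmox1 went from -1.34 to 0.22.

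Whether a member's level followed the cohort was examined by comparing the hippocampal and frontal cortical library of each of the 20 cohorts, after removal of the group means, for the 8 members averaging at least 20 counts. For Nfe2l2 Pearson's r was 0.532 (permutation p = 0.0172, adjusted over 8 members 0.137) and Spearman's rho 0.436 (permutation p = 0.0558, adjusted p = 0.223). It was 0.333 within the pre-KD and 0.642 within the post-KD cohorts, and fell to 0.291 without the 2 cohorts farthest from the median in hippocampus, so that it rested on those, the post-KD cohorts of donors 5 and 6. For Prdx1 r was 0.458 (permutation p = 0.0420, adjusted p = 0.168) and rho 0.535 (permutation p = 0.0164, adjusted p = 0.132), with 0.560 without the 2 farthest cohorts and 0.383 without donors 9 and 10. The other 6 members had r between -0.227 and 0.224. Txnrd1 had r = 0.638 within the pre-KD and -0.648 within the post-KD cohorts, and -0.140 in all, or -0.514 without the 2 farthest cohorts. Without their 2 farthest cohorts Sod2 went from -0.220 to -0.452, Keap1 from -0.034 to -0.199 and Srxn1 from -0.227 to -0.049. Txn1 went from 0.224 to 0.359 and Sod1 from 0.180 to 0.294 in the same way. Under the other settings tried Txn1 ran from 0.019 to 0.297. None passed adjustment, and with donor 3 left out Nfe2l2 alone did (r = 0.661, permutation p = 0.00455, adjusted p = 0.0364).

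Within a region the members showed no shared direction. Over the 28 pairs of these 8 members, r across the 20 libraries ran from -0.492 to 0.539 in hippocampus (median -0.0066, 14 positive) and from -0.306 to 0.4657 in frontal cortex (median 0.0096, 14 positive). The genes whose levels were most like Nfe2l2 were Spcs2 (r = 0.798), Secisbp2 (0.798) and Mettl16 (0.790) of 8015 genes in hippocampus and Ankzf1 (0.789), Fxyd1 (0.768) and Slc25a23 (0.761) of 8254 in frontal cortex, with none shared. These are descriptions over 20 libraries that share depth and cohort, picked as the highest among all genes averaging at least 20 counts.

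The other genes of the pathway are given as 3 lists, beside 10.1% of all genes past the unadjusted threshold in hippocampus and 9.68% in frontal cortex. Of 14 other regulators of NRF2 (partners, competitors and ligase parts), 0 passed the unadjusted threshold in hippocampus (median -0.21, 4 higher and 10 lower) and 1 of 13 tested in frontal cortex (median -0.06). That was Nfe2l3, a sparse relative of Nfe2l2, with 0.404 ± 1.11 CPM in the pre-KD and 5.09 ± 7.40 CPM in the post-KD group (log2 fold change 3.45, SE 1.26, unadjusted p = 0.00784, adjusted p = 0.147). Of 28 other NRF2 targets, 27 were tested in each region. In hippocampus 1 was lower, the aldo-keto reductase Akr1b8, nearly without reads (0.796 ± 1.36 and 0.0656 ± 0.207 CPM, log2 fold change -2.59, unadjusted p = 0.0470, adjusted p = 0.479), and the median was 0.10 (17 higher, 10 lower). In frontal cortex 1 was higher, Fth1, the heavy chain of the iron store ferritin, with 826 ± 136 CPM in the pre-KD and 1013 ± 141 CPM in the post-KD group (log2 fold change 0.29, SE 0.095, unadjusted p = 0.00295, adjusted p = 0.122), and the median was 0.20 (18 higher, 9 lower). Fth1 has processed copies in the genome between which reads may be split.

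Of 30 other antioxidant enzymes, 0 passed in hippocampus (median 0.17, 20 higher and 10 lower) and 1 in frontal cortex (median 0.18, 19 higher and 11 lower), the secreted glutathione peroxidase Gpx3, with 9.48 ± 9.42 CPM in the pre-KD and 19.7 ± 9.62 CPM in the post-KD group (log2 fold change 1.05, SE 0.52, unadjusted p = 0.0459, adjusted p = 0.493). None of these list members passed after adjustment. For the difference between regions in the post-KD change, 0 regulators, 1 target (Fth1, -0.26, unadjusted p = 0.0416) and 1 enzyme (the peroxiredoxin Prdx6, -0.50, unadjusted p = 0.0287) passed the unadjusted threshold, both with adjusted p = 1, beside 2.22% of all genes.

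Between regions, 2 list members passed after adjustment (beside 2.85% of all genes), both lower in hippocampus. The heme transporter Slc48a1 was at 140 ± 48.2 and 150.2 ± 48.5 CPM in hippocampus pre-KD and post-KD and at 197 ± 42.3 and 179 ± 28.3 CPM in frontal cortex (log2 difference -0.43, SE 0.12, adjusted p = 0.0188). The glutathione peroxidase Gpx1 was at 45.9 ± 18.9 and 54.4 ± 31.5 CPM in hippocampus and at 68.1 ± 20.96 and 87.0 ± 26.4 CPM in frontal cortex (log2 difference -0.72, SE 0.20, adjusted p = 0.0191). Of the regulators, 1 was higher and 3 lower in hippocampus at unadjusted p below 0.05: the small MAF partner Mafg at 0.43 (SE 0.19), the kinase Gsk3b at -0.24 (SE 0.076), the KEAP1-binding autophagy receptor Sqstm1 at -0.22 (SE 0.11) and the repressor Bach1 at -1.45 (SE 0.73), with adjusted p from 0.0516 to 0.447. Of the targets 2 were higher and 2 lower, and of the enzymes 0 were higher and 4 lower, at the unadjusted threshold. That made 4 of 14 regulators, 4 of 28 targets and 4 of 30 enzymes, beside 10.9% of all genes. Beside these, the summed level of 6 endothelial markers was 75.0 to 216 CPM in hippocampus and 122 to 298 CPM in frontal cortex, with 3 of 6 lower in hippocampus at unadjusted p below 0.05 and 0 after adjustment. Of 6 neuronal markers 3 were lower at unadjusted p below 0.05, 2 of them past adjustment, of 6 oligodendrocyte markers 3 were lower and 1 higher, and of 4 blood transcripts tested 3 were lower, with 0 of the last 2 lists past adjustment. Their summed levels were 3571 to 4755, 1792 to 3610 and 420 to 1243 CPM in hippocampus and 3896 to 5038, 1995 to 3731 and 390 to 1390 CPM in frontal cortex. Of 7 astrocyte markers 6 were fitted higher in hippocampus and 1 lower, with 1 higher at unadjusted p below 0.05. Of 7 microglial markers 3 were fitted higher and 4 lower, with 1 lower at unadjusted p below 0.05. In both of these lists 0 passed adjustment. The part of these cell types in the differences was not tested.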

How the data were processed

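RNA was measured in 40 libraries. The authors aligned trimmed paired reads to mm10 with STAR 2.5.2a and counted them with HTSeq 0.6.0, and the deposited values are whole-number counts per Ensembl gene, 1 table per region. The annotation release is not given in the sources used here. Of 47643 identifiers, 47224 matched GENCODE M21 (GRCm38), from which names, positions and exon lengths were taken; sequences are from RefSeq (GRCm38.p6), where Hmox1 is not in the table of start windows. No 2 libraries of a group were identical (180 pairs). A gene entered a fit when its libraries held 10 or more counts in all. The test was the two-sided quasi-likelihood F test of edgeR 4.0.16 with TMM factors in R 4.3.3, with Benjamini-Hochberg adjustment over all genes and a threshold of 0.05. SE is the absolute log2 fold change over the square root of F. Region comparisons had cohort as a block. Correlations were computed on log2 CPM (prior count 2), with 100000 permutations. Scripts were tested on simulated data. Library totals were 1140756 to 2095352 counts, and their part in the precision of sparse genes was not tested.

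Donor numbers in the labels pair pre-KD and post-KD cohorts through the shared stool donor. Over genes, deviations of paired libraries correlated at -0.028 to 0.030 in hippocampus (8016 genes) and -0.056 to 0.032 in frontal cortex (8255 genes). Donor as a block was an alternative, as were DESeq2 1.42.0, RLE factors, other filters and leaving out donors. Leaving out donors 9 and 10 together was added after the data were seen. Named genes are all 10 members, the 3 genes most correlated with Nfe2l2 or Nqo1, and, in each comparison, up to 4 genes of each pathway list with the smallest p. These list genes had to pass the adjusted threshold where any gene of the list did, and otherwise the unadjusted one. The genes most correlated with Nqo1 are not given, because Nqo1 averaged fewer than the 20 counts required for correlations. The members, lists and rules were chosen with earlier results of these data known. Markers used as checks were of astrocytes, microglia, endothelium, oligodendrocytes, neurons, choroid plexus, blood, hippocampus, cortex and striatum.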

Additional observations from a re-analysis of the deposited data

Results flagged for a closer look

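In 8 of 40 groups of 10 libraries checked, the highest or lowest library of a gene stood apart by Dixon's criterion; by chance about 1 group in 20 would, if values are roughly normal. In 6 of the 8 groups, those of Hmox1 and Nqo1, at least 5 libraries were at 0, so the count is not to be read against that rate. Of these, 4 were Hmox1, where the highest library was at 6.9997 CPM in hippocampus pre-KD (donor 9), 5.64 in hippocampus post-KD (donor 6), 2.83 in frontal cortex pre-KD (donor 8) and 12.96 in frontal cortex post-KD (donor 7), with a group median of 0 in each. For Nqo1 the highest pre-KD library was at 4.16 CPM in hippocampus (donor 1) and 4.70 in frontal cortex (donor 3). Keap1 was low in the hippocampus pre-KD library of donor 9, at 29.9 CPM beside 88.0 in the next lowest. Txnrd1 was high in the hippocampus post-KD library of donor 8, at 100.3 CPM beside 58.7 in the next highest.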

How the results depend on the processing

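The number of members past the adjusted threshold was 0 in all 4 comparisons under every setting tried. Nqo1 and Hmox1 averaged at most 5.90 reads per library in every group. Within the groups, the variance of their counts divided by the mean ran from 4.74 to 10.996 for Nqo1 and from 2.33 to 18.2 for Hmox1. The part of depth in this spread was not tested. With 1 donor left out in turn the Nqo1 log2 fold change ran from 1.81 to 3.58 in hippocampus and from 1.18 to 2.36 in frontal cortex, and that of Hmox1 from -3.63 to -0.30 and from 1.64 to 3.05. The Hmox1 ranges lack the fit without donor 9 in hippocampus and without donor 7 in frontal cortex. Those donors held most of the reads, and fewer than the minimum of 10 were left, so no value was fitted. P-values measure the spread between cohorts, each 1 pool, and the unadjusted counts moved widely with the filter, the tool and the block, for reasons that were not tested. In hippocampus, genes at unadjusted p below 0.05 numbered 599 in DESeq2, 221 with filterByExpr, 2931 without a filter, and, with donor as a replicate block, 348 in edgeR and 931 in DESeq2. After adjustment there were 0 in DESeq2, with filterByExpr and with the block in either tool, and 1291 without a filter. Members at unadjusted p below 0.05 numbered 1 (Txn1) in DESeq2, with and without the block. In frontal cortex the unadjusted counts were 825 in DESeq2, 407 with filterByExpr, 3035 without a filter, 548 with the block in edgeR and 1096 with it in DESeq2, and the adjusted counts were 2 in DESeq2, 3 with the block in edgeR and 12 with it in DESeq2. The donor block changed no call of a member within a region in either tool, but with it the Hmox1 log2 fold change in frontal cortex was 1.06 in edgeR and 0.66 in DESeq2, and that of Sod2 in hippocampus was -0.0029 in edgeR. Between regions DESeq2 gave 1033 adjusted calls, and the fit without the replicate block 1935 adjusted and 3475 unadjusted calls. For the difference between regions, DESeq2 gave 949 unadjusted and 0 adjusted calls and 2 members at unadjusted p below 0.05 (Txn1 and Txnrd1), filterByExpr gave 0 adjusted calls and 0 such members, and the fit without the block gave 1767 unadjusted and 348 adjusted calls, with Txn1 in place of Txnrd1 as the 1 such member. With donors 9 and 10 left out, members at unadjusted p below 0.05 numbered 0 in frontal cortex, 2 between regions (Txnrd1 and Sod1) and 0 for the difference between regions.

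The signs that turned belonged to log2 fold changes that had not passed unadjusted p = 0.05 in edgeR. In hippocampus, Keap1 was 0.0096 in DESeq2, 0.0097 with RLE factors, 0.0090 with filterByExpr, and 0.033 and 0.048 with the block in edgeR and DESeq2. Sod1 was -0.00073 without a filter and -0.033 without donors 9 and 10, and Sod2 was 0.0091 with the block in DESeq2. In frontal cortex, Hmox1 was -0.53 in DESeq2, and without donors 9 and 10 Srxn1 was -0.013 and Sod2 0.11. Between regions, Keap1 was 0.033 without those donors. For the difference between regions, Hmox1 was 0.22 and Sod2 -0.45 without them, and Nqo1 was 0.64 without the block.

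With each donor left out in turn, genes past the adjusted threshold in hippocampus numbered 0 (without donor 4 or 9) to 1, and members at unadjusted p below 0.05 numbered 0 to 1 in each of the 4 comparisons. In hippocampus the 1 member was Nqo1 without donor 1, Hmox1 without donor 6 and Txn1 without donor 8; in frontal cortex it was Txnrd1, lost without donor 2, 3, 8, 9 or 10. Between regions it was Txnrd1 without donor 1, 3 or 10 and Sod1 without donor 9, and for the difference between regions it was Txnrd1, lost without donor 1, 3, 8, 9 or 10. Members whose hippocampal and frontal cortical levels correlated past adjustment numbered 0 to 1 (Nfe2l2 without donor 3). The log2 fold changes that turned ran in hippocampus from -0.079 to 0.12 for Sod1, -0.11 to 0.072 for Keap1, -0.33 to 0.019 for Nfe2l2, -0.35 to 0.10 for Sod2 and -0.041 to 0.42 for Txnrd1. In frontal cortex they ran from -0.18 to 0.015 for Keap1, -0.049 to 0.11 for Srxn1 and -0.011 to 0.30 for Prdx1. Between regions they ran from -0.064 to 0.070 for Prdx1, -0.0061 to 0.13 for Txn1, -1.08 to 0.21 for Hmox1 and -0.20 to 0.0087 for Keap1. For the difference between regions they ran from -0.0090 to 0.23 for Keap1, -1.34 to 1.02 for Nqo1, -0.12 to 0.26 for Srxn1, -0.20 to 0.43 for Sod2 and -2.34 to 0.21 for Hmox1. The correlations ran from -0.116 to 0.131 for Keap1, 0.300 to 0.661 for Nfe2l2 and -0.0089 to 0.255 for Sod1.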
